A study of Mus musculus with 12 samples.

Results

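The 10 genes described here encode the machinery by which pyruvate enters mitochondrial metabolism. The rule lists them by name and has no threshold on a measured value, and all 10 were found among the 18929 gene symbols of the table. They are the core subunits of the pyruvate dehydrogenase (PDH) complex (Pdha1, Pdhb, Dlat and Dld), the PDH kinases Pdk1, Pdk2 and Pdk3, pyruvate carboxylase (Pcx), and the mitochondrial pyruvate carrier subunits Mpc1 and Mpc2. Pyruvate made in glycolysis crosses the inner mitochondrial membrane through the carrier, a complex of MPC1 and MPC2. Inside, the PDH complex turns it into acetyl-CoA, the fuel of the tricarboxylic acid (TCA) cycle, while pyruvate carboxylase turns it into oxaloacetate and so refills the cycle. PDH kinases phosphorylate the E1 alpha subunit PDHA1 and switch the complex off, and PDK1 is a known target of the hypoxia-inducible factor HIF; in activated T cells the balance between the complex and its kinases is a branch point between lactate production and mitochondrial oxidation.

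RNA-seq was done on T helper 1 (Th1) cells, the CD4 T cell subset that makes interferon gamma, of C57BL/6 mice after 5 days of culture under Th1 conditions and cell sorting. The tested genotype was Sdhc cKO, a conditional knockout of Sdhc, which encodes a membrane subunit of succinate dehydrogenase (complex II), with 3 libraries; it was set against control libraries labelled WT, also 3. The labels give no Cre driver, sort marker, age or sex. They do not tell if libraries of a group came from different mice or cultures either, and the p-values below rest on the spread between libraries alone, part of which may be technical. Sex-linked transcripts, given below, differed within each group, so the libraries of a group were not all made from the same cells. The series has 12 samples, of which the 6 of its other 3 groups (Slc25a1 KO, Slc25a11 KO and empty-vector cells) were not analysed here.

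Each library held between 18144933 and 21983821 counted reads, and values are given as normalised counts, that is, reads divided by 1 size factor per library. Sdhc itself had 1452, 1562 and 1655 normalised counts in cKO 1, 2 and 3, against 1683, 1602 and 1892 in control 1, 2 and 3, a log2 ratio of cKO to control of -0.15 that missed the threshold of 0.05 (limma adjusted p = 0.978). Counts per gene do not resolve exons and so do not check the deletion. T cell markers were abundant (Cd4 between 10113 and 11045 normalised counts per library), and the 4 B cell markers measured summed to 39.8 to 76.3 in the cKO libraries and 46.3 to 64.7 in the control libraries. Libraries did not group by genotype: along the first principal component (49.07% of the variance) cKO 1 and control 1 lay on one side and the other 4 libraries on the opposite side. These same 2 libraries had almost no Y-linked transcripts (reads on Ddx3y, Kdm5d, Uty and Eif2s3y), with 0.207 RPM (reads relative to the library total) in cKO 1 and 0.048 RPM in control 1, against 193 and 189 in cKO 2 and cKO 3 and 131 and 55.1 in control 2 and control 3. Xist, transcribed from the inactive X, had values of 7565, 0 and 2.15 in cKO 1, 2 and 3, against 9780, 2490 and 6406 in control 1, 2 and 3. Control 2 and control 3 thus held both Xist and Y-linked reads, and the labels do not tell if cells of both sexes were mixed. Sex-linked transcripts differ between the groups as well as within them.

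To place these genes before their values, 4 promoter windows are shown, those of Pdk1, Pdk3, Pcx and Pdhb. Among the 7 genes that were lowest in cKO 1, Pdk1, Pdk3 and Pcx had the widest ranges. These were 0.55, 0.74 and 1.28 between highest and lowest library on the log2 scale. Pdk1 was nearly as low in control 1 as in cKO 1. Pdhb was the steadiest of the 10. The choice was made after their values were seen. Each window runs from 250 bases before to 50 bases after a RefSeq gene start (GRCm38.p6) and is written 5′ to 3′ on the strand of the gene. Capitals mark the letters ACGTG or GCGTG, the core of the HIF response element, on either strand; ACGTG on both strands makes the E-box CACGTG. The windows are chr2:71872974-71873273 on the plus strand for Pdk1 (the first of its 2 windows), chrX:93832101-93832400 on the minus strand for Pdk3, chr19:4510222-4510521 on the plus strand for Pcx (the first of its 2) and chr14:8172943-8173242 on the minus strand for Pdhb.
Pdk1: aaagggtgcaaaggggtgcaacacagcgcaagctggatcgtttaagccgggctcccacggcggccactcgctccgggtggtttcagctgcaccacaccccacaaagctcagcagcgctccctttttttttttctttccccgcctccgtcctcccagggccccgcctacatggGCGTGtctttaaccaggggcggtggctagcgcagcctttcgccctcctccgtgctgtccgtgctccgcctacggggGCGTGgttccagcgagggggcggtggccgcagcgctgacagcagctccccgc
Pdk3: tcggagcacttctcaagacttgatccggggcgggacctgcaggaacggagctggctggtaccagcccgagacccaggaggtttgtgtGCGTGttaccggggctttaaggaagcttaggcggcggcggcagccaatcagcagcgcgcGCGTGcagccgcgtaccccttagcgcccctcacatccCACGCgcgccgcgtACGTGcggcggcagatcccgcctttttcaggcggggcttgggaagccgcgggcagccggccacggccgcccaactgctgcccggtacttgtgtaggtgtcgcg
Pcx: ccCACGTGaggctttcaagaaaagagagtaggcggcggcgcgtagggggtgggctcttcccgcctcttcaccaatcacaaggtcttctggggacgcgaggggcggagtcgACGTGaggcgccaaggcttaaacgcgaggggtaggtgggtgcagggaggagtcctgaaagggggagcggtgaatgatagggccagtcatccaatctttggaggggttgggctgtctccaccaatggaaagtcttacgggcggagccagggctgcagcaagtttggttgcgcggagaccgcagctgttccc
Pdhb: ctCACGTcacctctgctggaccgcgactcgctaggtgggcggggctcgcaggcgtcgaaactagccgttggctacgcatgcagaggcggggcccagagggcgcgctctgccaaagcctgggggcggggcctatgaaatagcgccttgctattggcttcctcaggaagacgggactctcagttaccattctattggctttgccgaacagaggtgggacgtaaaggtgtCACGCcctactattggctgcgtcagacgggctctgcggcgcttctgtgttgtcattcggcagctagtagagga

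The Pdk1 window held 2 capital runs, both GCGTG, and the Pdk3 window held 4. The Pcx window held 2, the first of them an E-box, and the Pdhb window also held 2. Among the genes whose windows are not shown, Dlat and Dld had 0 such runs, Mpc1 and Mpc2 had 1 each, Pdha1 had 4 and Pdk2 had 1. Of these, Dlat, Dld, Mpc1 and Mpc2 were also lowest in cKO 1, whereas Pdha1 and Pdk2 were highest there. A link between these letters and the levels was not tested. The 10 genes had 14 windows, of which 4 held ACGTG (28.6%) and 6 held GCGTG (42.9%). Of all 32851 windows in the RefSeq table, 19.6% held ACGTG and 32.4% held GCGTG. In windows of the genes tested here the shares were 25.6% and 50.5%. Matches of this kind are common, and a match is not a binding site.

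The transcripts of the PDH complex did not differ between genotypes beyond the spread between libraries. PDHA1 and PDHB together form E1, the decarboxylase that commits pyruvate. Pdha1 (ENSMUSG00000031299.10, chromosome X, 160122209 to 160138413, minus strand, GRCm38) had 3762, 3214 and 3302 normalised counts in cKO 1, 2 and 3, against 3344, 3257 and 3460 in control 1, 2 and 3. The groups overlapped, with cKO 1 above every other library and the remaining 5 within a narrow band. The means were 3426 ± 294 in cKO and 3354 ± 102 in control (SD, n = 3 each). The log2 ratio, that is, the log2 fold change of cKO over control, was 0.03 (SE 0.08, 95% interval -0.16 to 0.22; limma adjusted p = 0.988). Pdha1 lies on the X chromosome, and Xist was present in cKO 1 and in all 3 control libraries, with at most 2.15 normalised counts in cKO 2 and cKO 3. With Xist as a covariate the Pdha1 value was 0.16 (limma adjusted p = 0.198). Without cKO 1, with control 1 kept here and below, it was -0.0416. Of the exon bases of Pdha1, 16.1% overlap exons of Map3k15 on the opposite strand, which reached no more than 14.7 normalised counts in any library; whether the counting used strand is not given.

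Pdhb (ENSMUSG00000021748.9, chromosome 14, 8165996 to 8173025, minus strand), the E1 beta subunit gene, had 858, 820 and 867 normalised counts in the cKO libraries, against 899, 831 and 844 in the control libraries. Its highest library was only 1.10 times its lowest, a spread over the 6 libraries in the 2.09th percentile of all tested genes. The log2 ratio was -0.02 (SE 0.08, 95% interval -0.19 to 0.16; limma adjusted p = 0.992). The sign of this value turns with TMM or upper-quartile scaling.

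Dlat and Dld encode E2, the lipoyl-bearing acetyltransferase, and E3, the dehydrogenase that reoxidises the lipoyl group. Dlat (ENSMUSG00000000168.9, chromosome 9, 50634633 to 50659780, minus strand) had 690, 894 and 839 normalised counts in cKO 1, 2 and 3, against 885, 957 and 881 in control 1, 2 and 3. It was lower in cKO in each pair of same-numbered libraries, but the groups overlapped because cKO 2 lay above control 1 and control 3. Its log2 ratio was -0.18 (SE 0.11, 95% interval -0.43 to 0.08; limma adjusted p = 0.978), and without cKO 1 it was -0.07. Dld (ENSMUSG00000020664.10, chromosome 12, 31331277 to 31351453, minus strand) had 1325, 1479 and 1367 normalised counts in the cKO libraries, against 1587, 1451 and 1467 in the control libraries. The groups again overlapped, through cKO 2, and the log2 ratio was -0.11 (SE 0.08, 95% interval -0.29 to 0.07; limma adjusted p = 0.978).

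**Figure D1:**
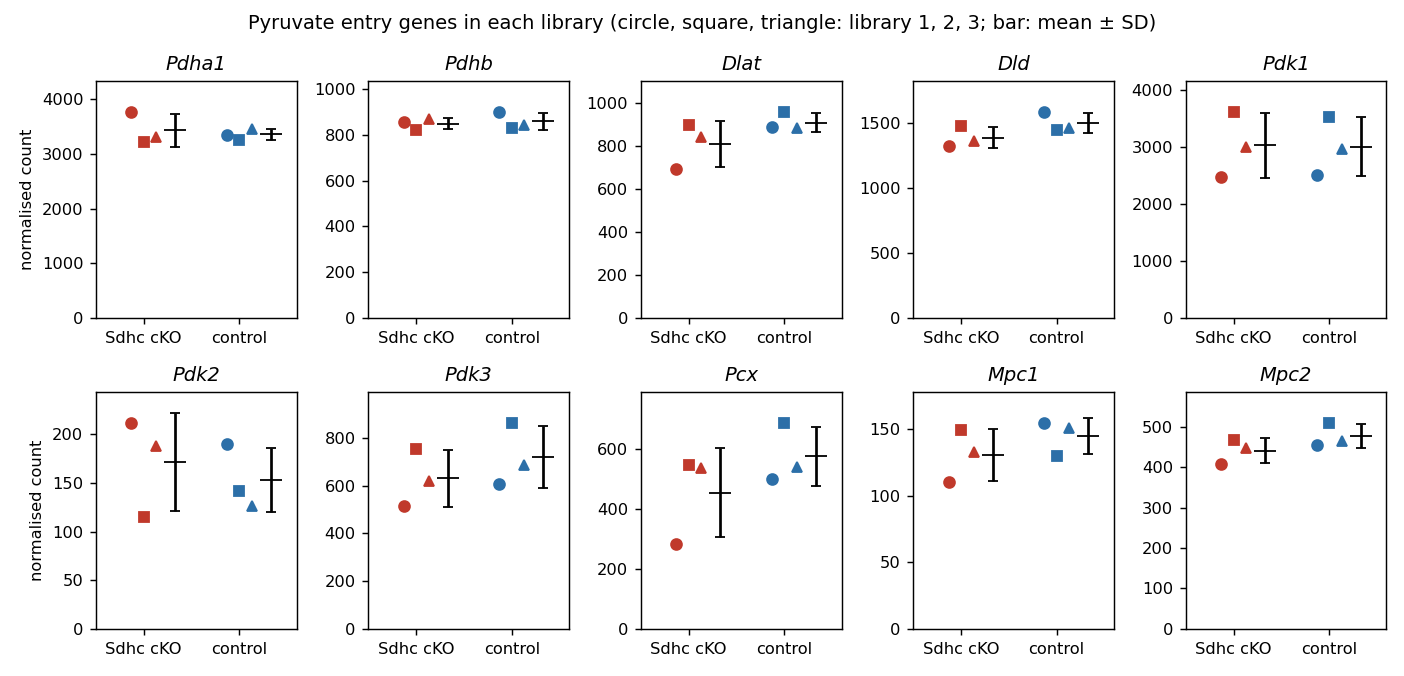
Normalised counts (y axis, from 0, scaled per gene) of the 10 genes in the 3 Sdhc cKO libraries (red) and the 3 control libraries (blue); circles, squares and triangles are libraries 1, 2 and 3, and black bars are the mean ± SD. The groups overlap for each of the 10 genes, and cKO 1 (red circle) is the lowest library for 7 of them.

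The kinases differed more between libraries than between genotypes. Pdk1 (ENSMUSG00000006494.11, chromosome 2, 71873224 to 71903858, plus strand) had 2468, 3616 and 3006 normalised counts in cKO 1, 2 and 3, against 2512, 3535 and 2975 in control 1, 2 and 3. Libraries of the same number lay close together in both genotypes, with number 1 lowest and number 2 highest. The means were 3030 ± 575 in cKO and 3007 ± 513 in control (SD, n = 3 each), a log2 ratio of 0.01 (SE 0.16, 95% interval -0.38 to 0.39; limma adjusted p = 0.999). The within-pair differences, cKO minus control on the log2 scale, were -0.03, 0.03 and 0.01 for numbers 1, 2 and 3, far below the 0.55 between the highest and the lowest library.

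Pdk3 (ENSMUSG00000035232.8, chromosome X, 93764607 to 93832201, minus strand), an X-linked kinase gene, followed the same order of libraries at a lower cKO level. Its normalised counts were 515, 754 and 621 in cKO 1, 2 and 3, against 608, 863 and 686 in control 1, 2 and 3. The groups overlapped, yet each cKO library lay below the control of its number, with differences of -0.24, -0.20 and -0.14 on the log2 scale. The log2 ratio was -0.19 (SE 0.17, 95% interval -0.59 to 0.21; limma adjusted p = 0.978), and with the replicate number as a block it did not pass either (limma adjusted p = 0.334). Without cKO 1, with its partner control 1 kept, it was -0.06, although the pairs numbered 2 and 3 stood at -0.20 and -0.14. Pdk3 is X-linked like Pdha1, and with Xist as a covariate its value was -0.50 (limma adjusted p = 0.103), with the Y-linked share -0.36 (limma adjusted p = 0.0541).

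Pdk2 (ENSMUSG00000038967.13, chromosome 11, 95026258 to 95041354, minus strand), a broadly expressed PDH kinase gene, ran the other way between libraries. It had 212, 115 and 188 normalised counts in cKO 1, 2 and 3, against 190, 142 and 126 in control 1, 2 and 3, so number 1 was highest in both genotypes. The pairs did not share a direction: cKO minus control was 0.16 and 0.57 on the log2 scale at numbers 1 and 3, and -0.31 at number 2. The log2 ratio was 0.14 (SE 0.26, 95% interval -0.45 to 0.73; limma adjusted p = 0.984), and -0.0338 without cKO 1. Between 115 and 211 reads per library stood behind these values, the least of the 3 kinases. Pdk4, the remaining kinase of the family, had at most 1 read in any library, which is below the count of 3 taken as the limit of detection, and no fold change is given for it.

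Per kilobase of exon, Pdk1 made up most of the transcript of the 3 kinases in every library. Its share was 54.2%, 58.4% and 56.1% in cKO 1, 2 and 3, against 52.1%, 54.3% and 55.4% in control 1, 2 and 3. The share of Pdk3 was 34.4%, 37.0% and 35.2% in the cKO libraries, against 38.3%, 40.3% and 38.8% in the control libraries, so here the groups did not overlap, with every cKO library below every control. This share needs no scaling between libraries. It was the only such case among 9 ratios and shares between the 10 genes that were compared, which are not independent of each other. Of all tested genes, 10.2% had groups that did not overlap, counting both directions. That figure is for values of single genes, and none was computed for shares or ratios. The Pdk3 share is therefore given as a description with no test. Pdk2 held 11.4%, 4.56% and 8.65% in the cKO libraries, against 9.68%, 5.37% and 5.79% in the control libraries.

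Pcx had the widest spread of the 10 genes. Pcx (ENSMUSG00000024892.17, chromosome 19, 4510472 to 4621752, plus strand) had 282, 546 and 535 normalised counts in cKO 1, 2 and 3, against 500, 687 and 538 in control 1, 2 and 3. The library cKO 1 lay far below all others, cKO 2 and cKO 3 lay among the controls, and each cKO library was below the control of its number. The means were 454 ± 149 in cKO and 575 ± 98.8 in control (SD, n = 3 each), or 79.0% of control, a log2 ratio of -0.39 (SE 0.26, 95% interval -0.98 to 0.21; limma adjusted p = 0.978). Within pairs, cKO minus control was -0.82, -0.33 and -0.01 on the log2 scale at numbers 1, 2 and 3. Without cKO 1, with its partner control 1 kept, the value was -0.08 in place of -0.39.

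Pcx was also the only 1 of the 10 genes that passed in any alternative fit. With the share of Y-linked reads as a covariate it fell by 0.69 on the log2 scale (limma adjusted p = 0.00982), and with Xist as the covariate by 0.99 (limma adjusted p = 0.0385). Those fits called 826 and 475 of the 12699 tested genes, or 6.50% and 3.74%. Under the other 18 alternatives its adjusted p lay between 0.323 and 0.9997. The lowest of these came with the replicate block, a fit that called 1 of all tested genes (0.00787%) and 0 of the 10. The Y-linked share is near 0 in both libraries numbered 1 and higher in cKO 2 and cKO 3 than in any control, so it moves with both the library number and the genotype, and the parts of these in the Pcx difference cannot be told apart. The same covariates moved other genes of the 10 without a call. Dlat stood at -0.27 with the Y-linked share (limma adjusted p = 0.0521) and -0.39 with Xist (limma adjusted p = 0.0543). With Xist, Pdk2 stood at 0.53, Mpc1 at -0.35, Mpc2 at -0.23 and Dld at -0.17, with limma adjusted p between 0.217 and 0.256.

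The carrier genes were near the bottom of the 10 in both genotypes by normalised counts per kilobase of exon. Without division by length, Mpc1 had the lowest mean of the 10. Mpc2, with means of 441 in cKO and 476 in control, then lay above Pdk2, at 172 and 153. Mpc1 (ENSMUSG00000023861.17, chromosome 17, 8282904 to 8297661, plus strand) had 110, 149 and 132 normalised counts in cKO 1, 2 and 3, against 155, 129 and 151 in control 1, 2 and 3. The groups overlapped, and the pair numbered 2 went against the other two. Its log2 ratio was -0.15 (SE 0.16, 95% interval -0.52 to 0.22; limma adjusted p = 0.978), and without cKO 1 it was -0.0399. Exons of an antisense transcript, 4930506C21Rik, overlap 23.1% of its exon bases and had at most 11.05 normalised counts in any library, and a processed pseudogene, Mpc1-ps, lies on chromosome 12, so its count carries this uncertainty. Mpc2 (ENSMUSG00000026568.6, chromosome 1, 165460637 to 165481214, plus strand) had 408, 467 and 447 normalised counts in the cKO libraries, against 454, 510 and 465 in the control libraries. It was lower in cKO in each numbered pair, while cKO 2 lay above control 1 and control 3. The log2 ratio was -0.11 (SE 0.10, 95% interval -0.34 to 0.12; limma adjusted p = 0.978), and -0.0581 without cKO 1. Per kilobase of exon, Mpc2 stood at 0.964 ± 0.079 times Mpc1 in cKO and 0.941 ± 0.154 times in control (SD, n = 3 each). This ratio depends on the length used. Per kilobase of the longest transcript, Mpc2 stood at 110 ± 7.53 normalised counts and Mpc1 at 136 ± 20.2 in cKO. In control they stood at 119 ± 7.35 and 151 ± 14.2.

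The order of levels per length was nearly the same in both genotypes. Pdha1 was highest, at 918 ± 78.9 normalised counts per kilobase of exon in cKO and 898 ± 27.3 in control (SD, n = 3 each), and it lay above every other gene of the 10 in all 6 libraries. Dld and Pdk1 followed, at 393 and 388 over all 6 libraries, and did not differ beyond their spread, each being the higher in 3 of 6. Pdk3 came next at 263 and lay above Pdhb, at 221, in 5 of 6 libraries. Dlat followed at 176 and Pcx at 108. Mpc1, Mpc2 and Pdk2 closed the order at 66.2, 62.4 and 51.3, with overlapping ranges. Between Pdha1 and Dld, and between Pdhb and Dlat, the ranges over the 6 libraries did not overlap. With the longest transcript in place of all exons as the length, Pdhb moved above Pdk3 and Mpc1 above Pcx in the control libraries. The E1 subunits, which join in equal numbers in the enzyme, differed at the transcript level: Pdha1 stood at 4.18 ± 0.32 times Pdhb per kilobase of exon in cKO and 4.05 ± 0.20 times in control. The size of this ratio depends on the length used. Per kilobase of the longest transcript, Pdha1 stood at 1203 and Pdhb at 357 in cKO, and at 1178 and 361 in control.

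**Figure D2:**
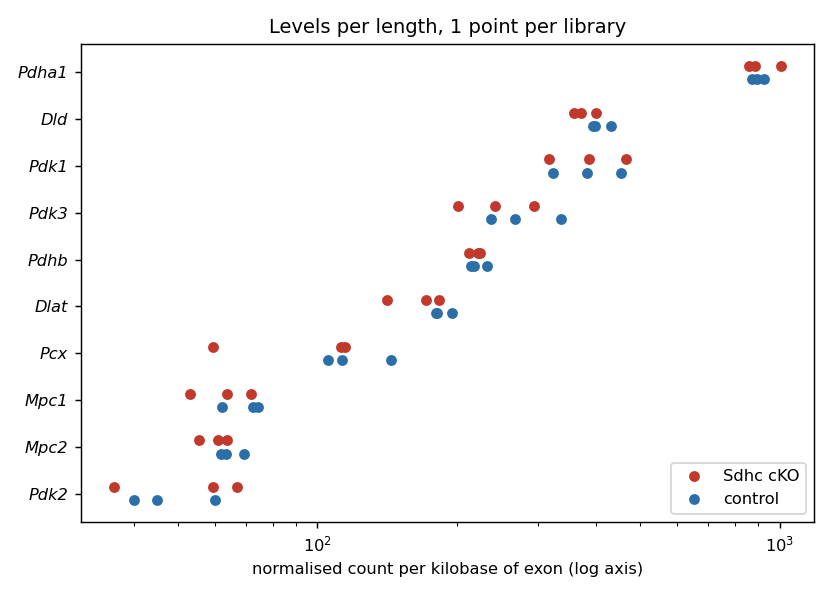
Normalised counts per kilobase of exon (x axis, logarithmic) of the 10 genes, ordered by their mean, with 1 point per library for Sdhc cKO (red, upper row of each gene) and control (blue, lower row). Pdha1 stands apart at 861 to 1008, and Mpc1, Mpc2 and Pdk2 share the lowest range.

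All 10 genes passed the filter on low values, and 0 of 10 were called between genotypes by limma at an adjusted p under 0.05, nor was the unadjusted p of any of them under 0.05 (0 of 10). DESeq2 and edgeR on the recovered reads also called 0 of 10. Over all 12699 tested genes limma called 0, which is 0% of them, edgeR called 0 and DESeq2 called 3, while 445 (3.50%) had an unadjusted limma p under 0.05. Of the 10 log2 ratios, 7 were negative and the median of all 10 was -0.11, where 54.1% of all tested genes were negative with a median of -0.01. The groups did not overlap for 0 of the 10, against 10.2% of all tested genes. By 2-sided exact permutation tests over libraries, the p of each gene lay between 0.3 and 0.9, where 0.1 is the smallest that 3 against 3 allows. The 95% intervals, not adjusted for the number of genes, give the log2 ratios that these values allow. That of Pdhb reaches no further than -0.19 and 0.16, and that of Pcx as far as -0.98.

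**Figure D3:**
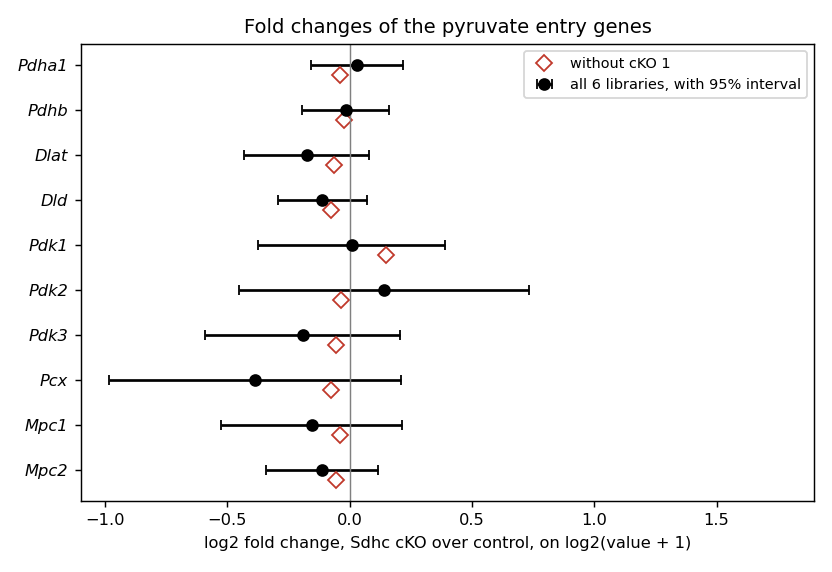
Log2 ratios of Sdhc cKO over control (x axis) with 95% intervals for the 10 genes from all 6 libraries (black), and the values without cKO 1, control 1 kept (red diamonds). Every interval includes 0, and without cKO 1 the value for Pcx is -0.08 in place of -0.39.

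The variation among libraries had a clear shape. The library cKO 1 was the lowest of the 6 for 7 of the 10 genes (Dlat, Dld, Pdk1, Pdk3, Pcx, Mpc1 and Mpc2), where it was the lowest for 32.0% of all tested genes. It was the highest for Pdha1 and Pdk2. Lower values in cKO at all 3 numbers were seen for 4 of the 10 (Dlat, Pdk3, Pcx and Mpc2), where 21.8% of all tested genes showed this. Without cKO 1, with its partner control 1 kept, 9 of the 10 fold changes were negative, with a median of -0.05. Only that of Pdk1 was positive, at 0.15, while its pairs numbered 2 and 3 differed by 0.03 and 0.01. Whether these libraries hold fewer cells of a type or less RNA per cell cannot be told apart in bulk RNA. T cell markers summed to 56013 normalised counts in cKO 1, against 45531 to 48853 in the 3 control libraries, and NK cell markers to 269 in cKO 1 and 359 in control 1, against at most 175 in the other 4. The T cell and NK cell sums overlapped between the groups, whereas the sums of 2 other marker lists did not. Of all tested genes, 5.64% did not overlap in the lower direction. The 5 gamma delta T cell markers summed to 238, 191 and 173 normalised counts in cKO 1, 2 and 3, against 312, 270 and 332 in control 1, 2 and 3, with Trdv4 at or below 2.20 in every library. Tcrg-C1 and Tcrg-C4 were lower in every cKO library than in every control, while Tcrg-C2 and Sox13 overlapped through cKO 1. The 4 Th1 markers summed to 7333, 6792 and 7291 in the cKO libraries, against 7457, 8230 and 8077 in the control libraries, so for both lists every cKO library lay below every control. Of the Th1 markers, Ifng, the interferon gamma gene, had 858, 880 and 865 normalised counts in the cKO libraries, against 1342, 1461 and 1342 in the control libraries, a log2 ratio of -0.67 (SE 0.07; limma adjusted p = 0.265). Tbx21 was also lower in every cKO library than in every control (1371, 1501 and 1489 against 1660, 1961 and 1760). The other Th1 markers overlapped between the groups. Cxcr3 had 388, 607 and 359 in cKO 1, 2 and 3 against 559, 506 and 460 in control 1, 2 and 3. Il12rb2 had 4716, 3803 and 4577 against 3896, 4302 and 4515. The CD8 T cell markers (235 to 547 in cKO, 278 to 368 in control) and the myeloid markers (36.2 to 82.4 in cKO, 38.2 to 66.7 in control) overlapped between the groups. The part of these differences in the 10 genes was not tested.

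HIF targets, the group to which Pdk1 is known to belong, moved with the same libraries. Over the 22 listed HIF targets, Pdk1 not among them, the median deviation of a gene from its own 6-library mean was -0.67, 0.39 and 0.10 on the log2 scale in cKO 1, 2 and 3, against -0.39, 0.37 and 0.22 in control 1, 2 and 3. Pdk1 deviated by -0.27, 0.28 and 0.01 in the cKO libraries, against -0.25, 0.24 and -0.0051 in the control libraries, and Pdk3 by -0.37, 0.18 and -0.10, against -0.13, 0.38 and 0.04. Pcx deviated by -0.82, 0.13 and 0.10, against 0.01, 0.46 and 0.11. Pdk1 thus sat at a similar relative level in cKO 1 and control 1, whereas Pcx was low in cKO 1 alone.

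**Figure D4:**
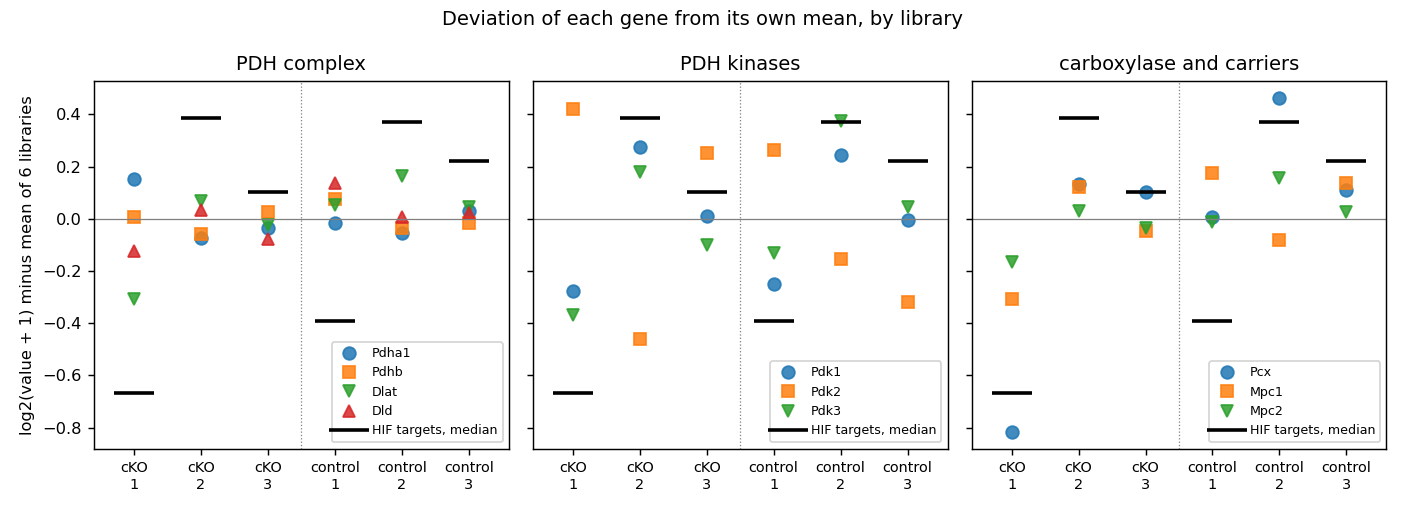
Deviation of each gene from its own mean over the 6 libraries (y axis, log2(value + 1) scale) in cKO 1 to 3 and control 1 to 3, for the PDH complex (left), the kinases (middle) and the carboxylase and carriers (right); black bars repeat the median deviation of the 22 HIF targets. The bars are lowest in cKO 1 at -0.67 and in control 1 at -0.39; Pdk1 and Pdk3 are low in both, and Pcx is lowest in cKO 1 at -0.82.

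Profiles over the 6 libraries were compared with that of Pdk1 by the root mean square difference of mean-centred log2 values, with unnamed gene models left out. The 5 remaining genes most like Pdk1 were Igtp (0.033), D8Ertd82e (0.038), Ipcef1 (0.042), Sepw1 (0.050) and Prpf8 (0.051). Igtp, an interferon-induced GTPase gene, had 6515, 9872 and 8175 normalised counts in cKO 1, 2 and 3, against 6988, 9419 and 8404 in control 1, 2 and 3. Prpf8, which encodes a core splicing factor, had 11625, 17127 and 15136, against 12583, 16891 and 15402.

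The remaining regulators of the complex did not pass either. None of the 4 tested genes of the PDH partner and regulator list passed (0 of 4, all 4 with negative log2 ratios, median -0.09 against -0.01 for all tested genes). Without cKO 1, control 1 kept, the direction turned, with 1 negative and 3 positive and a median of 0.03. Pdp2, a PDH phosphatase gene that reverses the kinases' action, had 844, 836 and 794 normalised counts in cKO 1, 2 and 3, against 923, 847 and 966 in control 1, 2 and 3. The groups did not overlap, as was so in the lower direction for 5.64% of all tested genes, and the log2 ratio was -0.14 (SE 0.08; limma adjusted p = 0.978). Pdpr, the phosphatase regulatory subunit gene, had a log2 ratio of -0.04 (SE 0.15), and Pdhx, the E3-binding protein gene of the complex, -0.11 (SE 0.16).

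The lipoyl group that DLAT carries is made by a pathway whose genes also showed no called change. Of the 10 listed genes for lipoylation and its iron-sulfur supply 0 passed, with 7 negative and 3 positive log2 ratios and a median of -0.06; without cKO 1 there were 8 and 2, with a median of -0.03. Lias, which encodes lipoic acid synthase, had a log2 ratio of 0.05 (SE 0.10), and Nfu1, an iron-sulfur carrier gene, -0.09 (SE 0.10). Mcat, of mitochondrial fatty acid synthesis, had 331, 283 and 322 normalised counts in the cKO libraries, against 260, 276 and 283 in the control libraries. The cKO values did not overlap the controls by a margin of under 1 normalised count (4.51% of all tested genes did not overlap in the higher direction), with a log2 ratio of 0.19 (SE 0.11; limma adjusted p = 0.978). Lipt2, the octanoyl transferase gene, had the largest negative value, -0.45 (SE 0.31), at a mean of 17.0 normalised counts in cKO and 23.9 in control.

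No tested gene of the complexes that share DLD or its lipoyl chemistry passed (0 of 7). The log2 ratios of all 7 were negative, where 54.1% of all tested genes were negative, and lay between -0.14 and -0.04 with a median of -0.09; without cKO 1 all 7 were negative with a median of -0.10. The groups did not overlap for 3 of the 7, each lower in cKO, against 5.64% of all tested genes. Ogdh, the E1 gene of the 2-oxoglutarate dehydrogenase complex of the TCA cycle, had 4895, 4987 and 5031 normalised counts in cKO 1, 2 and 3, against 5527, 5511 and 5286 in control 1, 2 and 3. Every cKO library lay below every control, with a log2 ratio of -0.13 (SE 0.06; limma adjusted p = 0.978). Gcsh, of the glycine cleavage system, had a log2 ratio of -0.14 (SE 0.09) and also no overlap between the groups. The same held for Bckdk, the kinase gene of the branched-chain complex, at -0.09 (SE 0.07), which was named after its values were seen. Dlst, the E2 partner of Ogdh, had -0.09 (SE 0.07) with overlapping groups. Dhtkd1 did not pass the filter.

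Of the 12 tested genes that supply pyruvate or take it elsewhere 0 passed. In all 3 same-numbered pairs cKO was lower for 9 of the 12, Ldha, Pkm and Gpt2 among them, where 21.8% of all tested genes showed this. Their log2 ratios were negative for 11 and had a median of -0.15. Without cKO 1, with its partner control 1 kept, the median was 0.02, with 5 negative and 7 positive. Keeping control 1 alone can turn a sign where that library is low. Ldha and Pkm stood at 0.18 and 0.24 without cKO 1, although cKO was lower for both at numbers 2 and 3. Ldha, the lactate dehydrogenase gene that competes with PDH for pyruvate, had 13449, 32201 and 25690 normalised counts in cKO 1, 2 and 3, against 16960, 33587 and 28445 in control 1, 2 and 3. Its groups overlapped widely, with both libraries numbered 1 lowest, and the log2 ratio was -0.18 (SE 0.35; limma adjusted p = 0.984). Pkm, which encodes the pyruvate kinase that makes pyruvate, had -0.16 (SE 0.38).

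Gpt2, which encodes a mitochondrial transaminase that links pyruvate with alanine, had 402, 788 and 740 normalised counts in cKO 1, 2 and 3, against 618, 939 and 818 in control 1, 2 and 3. As for Pcx, cKO 1 was lowest and control 2 highest, and the log2 ratio was -0.34 (SE 0.27) with all libraries and -0.03 without cKO 1. Me1, the cytosolic malic enzyme gene, had -0.61 (SE 0.35) at means of 21.3 normalised counts in cKO and 34.2 in control. Acly, which encodes the cytosolic enzyme that makes acetyl-CoA from citrate and was named after its values were seen, did not overlap (1 of 12, against 5.64% of all tested genes lower), at 8762 ± 443 normalised counts in cKO and 9725 ± 467 in control (SD, n = 3 each) and a log2 ratio of -0.15 (SE 0.08; limma adjusted p = 0.978).

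Among the 22 HIF targets 0 passed, with 17 negative and 5 positive log2 ratios and a median of -0.12. Without cKO 1, control 1 kept, the median was 0.19, with 3 negative and 19 positive. Control 1 was itself low for these genes, with a median deviation of -0.39. Keeping it while leaving out cKO 1 raises the ratio, so this turn of sign does not show higher HIF targets in cKO. In all 3 pairs cKO was lower for 7 of the 22 (21.8% of all tested genes). Aldoa and Eno1, glycolytic enzyme genes, had log2 ratios of -0.08 (SE 0.35) and -0.25 (SE 0.45), and Hk2, the hexokinase gene, -0.37 (SE 0.30). P4ha2, a collagen prolyl hydroxylase gene, had 0.41 (SE 0.64). Hif1a, named after its values were seen, was the only gene of this list whose groups did not overlap, 1 of 22, where 5.64% of all tested genes did so in the lower direction and 10.2% in either. It stood at 12162, 11572 and 12346 normalised counts in cKO 1, 2 and 3, against 14091, 13422 and 13968 in control 1, 2 and 3. Its log2 ratio of -0.20 (SE 0.07) did not pass over all genes (limma adjusted p = 0.978), and it was -0.21 without cKO 1.

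**Figure D5:**
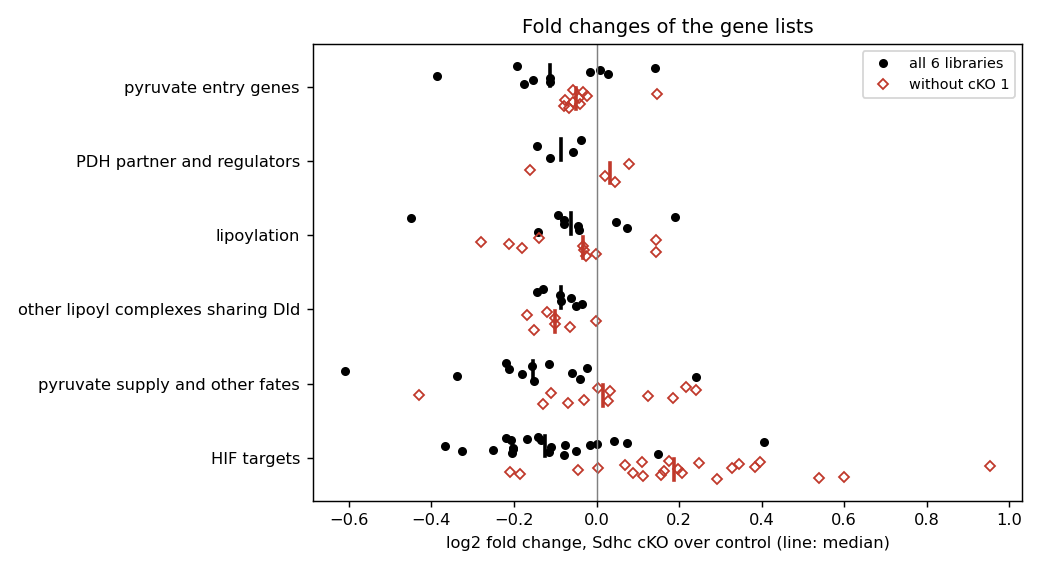
Log2 ratios of Sdhc cKO over control (x axis) for each tested gene of the 10 pyruvate entry genes and of the 5 other lists, from all 6 libraries (black circles) and without cKO 1, control 1 kept (red diamonds), with vertical lines at the medians. The median of the HIF targets is -0.12 with all libraries and 0.19 without cKO 1, and that of the pyruvate entry genes is -0.11 and -0.05. Control 1, which was kept, was itself low for the HIF targets, which raises their values without cKO 1.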

How the data were processed

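RNA of sorted Th1 cells was made into Illumina TruSeq libraries, per the labels' protocols. The submitters' processing notes name STAR, HTSeq, DESeq2 and mm10; the sources used here do not give versions, settings, annotation or strand use. The deposited signal values are reads divided by 1 size factor per library by the authors: every value is a whole multiple of the library's smallest value, to within 0.01. Reads were recovered from those steps.

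The main test was limma-trend in R 4.3.3 with limma 3.58.1, run on log2(value + 1) of the 12699 genes that exceeded a value of 10 in 3 or more libraries. Genotype was its single term, and p-values were adjusted over all these genes by Benjamini-Hochberg, with a threshold of 0.05. Log2 ratios are cKO over control on this scale, so those of low genes are understated; SE is limma's moderated one. The plan named edgeR for raw counts. DESeq2 1.42.0, edgeR 4.0.16 and limma-voom on the recovered reads, other scalings, filters, pseudocounts, covariates, array weights, a replicate block and leaving out each library were alternatives.

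The 10 genes, the lists and the alternatives were chosen with earlier results of these data known. Named genes of the other lists were the 2 most abundant and the 2 with the largest fold change where none was called, beside those said to be chosen later. Lengths and positions come from GENCODE M21 (GRCm38, the assembly of mm10) and promoters from RefSeq; 17613 symbols were found in GENCODE. Depth was 18144933 to 21983821 reads per library.

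Replicate numbers are shared by both genotypes. Across genes, the deviations from the group mean of cKO 1 and control 1 had a correlation of 0.579; for numbers 2 and 3 it was 0.458 and 0.188. Each is over 0.1, so the numbers were taken as pairs from the data, since the labels do not give the pairing. Deviations within a group cancel out, so these values are not independent of each other. For cKO 3 the value with control 2 was higher, 0.272, and for cKO 2 with control 3 it was 0.0912. The pairing at numbers 2 and 3 is therefore less certain than at number 1.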

Additional observations from a re-analysis of the deposited data

How the results depend on the processing

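Of 200 fits of the 10 genes under the alternatives, 186 kept the sign of the log2 ratio and 2 passed the test, both for Pcx with a sex-linked covariate. The sign turned for Pdhb with TMM (0.0001987) and upper-quartile scaling (0.0278), array weights (0.0066), the Y-linked share (0.00474) and Xist (0.0116) as covariates, for Pdha1 with array weights (-0.0274) and for Pdk1 with the Y-linked share (-0.164) and Xist (-0.299); none of these values passed, the estimation of array weights stopped before convergence, and the cause was not tested. With each library left out in turn the log2 ratios ran from -0.0416 to 0.072 for Pdha1, -0.0386 to 0.0182 for Pdhb, -0.129 to 0.147 for Pdk1, -0.0338 to 0.406 for Pdk2 and -0.551 to -0.076 for Pcx. The count of the 10 genes called was 0 in the main analysis, 1 with the Y-linked share, 1 with Xist and 0 under every other alternative. Over all tested genes 0 were called in the main analysis, 3 by DESeq2, 1 with array weights, 1 with the replicate block, 826 with the Y-linked share, 475 with Xist and 0 to 1 with a library left out, the 1 without cKO 1; the scalings, filters, pseudocounts, edgeR and limma-voom gave 0. The replicate block, which pairs same-numbered libraries, changed the call of none of the 10 genes. Each of the 10 genes had at least 110 reads in every library, and intervals rest on 3 libraries a group.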
